A study of Mus musculus with 4 samples.

Results

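The Aurora, Polo and spindle checkpoint kinases drive or hold back the steps of cell division, and 10 genes of this group were followed here in mouse spermatogonial stem cells: Aurka, Aurkb, Aurkc, Plk1, Plk4, Bub1, Bub1b, Ttk, Nek2 and Cdk1. They were chosen by gene symbol, and all 10 were found among the 31600 features of the deposited table. The study sequenced ribosomal-RNA-depleted total RNA from 2 control libraries (genotype label WT) and 2 libraries of a group whose genotype label reads Differentiation, and every library carries the cell type label spermatogonial stem cells. The sources used here do not give the strain, the age of the animals, or the treatment and time behind the differentiation group. They also leave unsaid whether replicate libraries stem from different cultures or mice. The p-values therefore measure only the spread between these libraries, which may be technical. Values are FPKM, fragments scaled to the length of a gene's exons and to the size of the library.

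CDK1, bound to a cyclin, starts mitosis and the meiotic divisions. Aurora A and PLK1 act at centrosomes and spindle poles, PLK4 starts the duplication of centrioles, and NEK2 separates centrosomes before the spindle forms. Aurora B is the enzyme of the chromosomal passenger complex, which corrects faulty attachments between kinetochores and microtubules, and Aurora C is its close relative in germ cells. TTK (also called MPS1), BUB1 and BUB1B (BUBR1) belong to the spindle assembly checkpoint, which holds back anaphase until every kinetochore is attached. In the testis these proteins serve the mitoses of spermatogonia and the meiotic divisions of spermatocytes.

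Many division genes carry CCAAT boxes, bound by NF-Y, and a cell cycle homology region with the core TTTGAA, bound by the DREAM and MYB-MuvB complexes, close to their start sites. RefSeq promoter windows on GRCm38.p6 (250 bases before to 50 bases after the start annotated by RefSeq) were matched for 9 of the 10 members, all except Aurkb. Exact matches were counted on both strands. CCAAT lay in 8 of the 9 windows, against 37.4% of all 32851 windows in the table, and TTTGAA in 5 of the 9, against 17.9%. A loose MYB motif, AACNGNC, lay in 5 of the 9, against 32.8%. No matches of different motifs overlapped in these 9 windows. The sequences below show the boxes in the members that rose most (Nek2, Aurka, Bub1), in Plk1, which fell, and in Ttk and Cdk1, which did not pass the test. Each is the 100 bases that end just before the RefSeq start, written 5′ to 3′ on the gene's strand, with CCAAT or TTTGAA in capitals (ATTGG and TTCAAA are the same boxes on the other strand).
Nek2, chr1:191821373-191821472, plus strand: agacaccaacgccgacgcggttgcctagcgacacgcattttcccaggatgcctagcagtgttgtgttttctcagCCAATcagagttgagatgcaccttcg
Aurka, chr2:172370571-172370670, minus strand: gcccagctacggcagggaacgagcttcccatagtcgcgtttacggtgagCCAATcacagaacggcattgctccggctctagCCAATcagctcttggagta
Bub1, chr2:127831860-127831959, minus strand: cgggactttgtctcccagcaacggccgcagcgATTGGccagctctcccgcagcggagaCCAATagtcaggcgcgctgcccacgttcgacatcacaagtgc
Plk1, chr7:122159335-122159434, plus strand: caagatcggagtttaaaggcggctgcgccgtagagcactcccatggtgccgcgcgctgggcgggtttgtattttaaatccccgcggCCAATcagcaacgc
Ttk, chr9:83834589-83834688, plus strand: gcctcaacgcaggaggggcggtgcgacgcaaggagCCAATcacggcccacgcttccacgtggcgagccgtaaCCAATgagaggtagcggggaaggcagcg
Cdk1, chr10:69352913-69353012, minus strand: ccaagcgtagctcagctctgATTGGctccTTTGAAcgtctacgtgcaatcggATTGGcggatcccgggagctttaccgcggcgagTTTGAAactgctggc

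The TTTGAA core lay just past the RefSeq start in Aurka, Plk1, Bub1b and Ttk, and before it in Cdk1, as the line for Cdk1 above shows. The following stretches of 30 bases hold those 4 matches, with the core in capitals.
Aurka, chr2:172370521-172370550, minus strand: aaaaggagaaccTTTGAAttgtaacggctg
Plk1, chr7:122159453-122159482, plus strand: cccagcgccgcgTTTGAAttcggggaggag
Bub1b, chr2:118598231-118598260, plus strand: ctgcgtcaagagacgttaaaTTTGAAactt
Ttk, chr9:83834684-83834713, plus strand: cagcggggaaatTTCAAAcgtgtttccgga
The first base of the core was at position 33 after the RefSeq start in Aurka and at position 31 in Plk1. Counted from the RefSeq starts, these 2 genes thus share the core at nearly the same place. They also share a CCAAT box at 19 and 14 bases before the RefSeq start, while their RNA moved in opposite directions, as given below. The gene coordinates given below place the start of Aurka at 172370535, inside the stretch that holds its core. They place that of Plk1 at 122159439, ahead of its stretch. From those starts the core begins before the start in Aurka and after it in Plk1. The shared placement therefore depends on the annotation used. Plk4 and Aurkc held no TTTGAA in this window, and neither did Nek2 and Bub1. A match is a description of the letters and says nothing of binding.

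**Figure D1:**
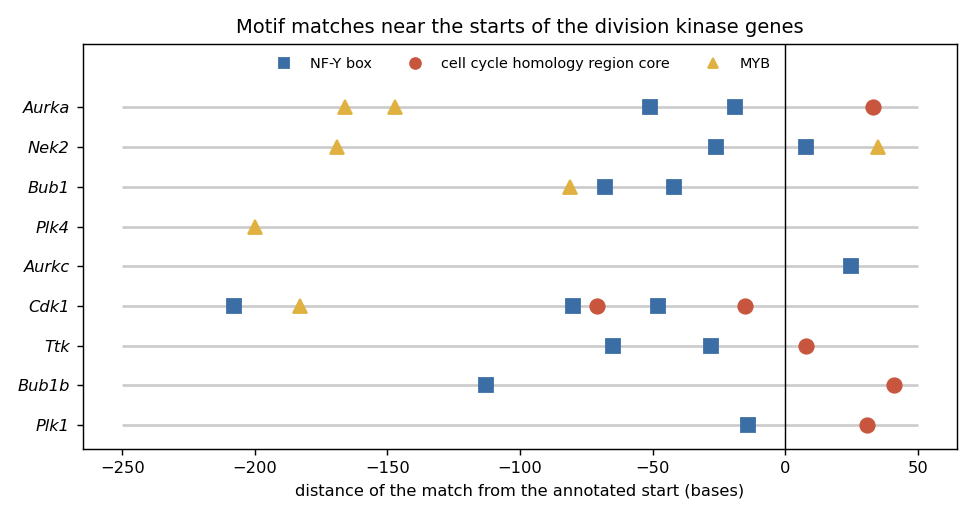
Each row is the promoter window of a member, with the distance from the annotated RefSeq start in bases on the horizontal axis and the symbols marking the first base of each motif match on either strand. NF-Y boxes appear in every row except Plk4, and the cell cycle homology region core in Aurka, Cdk1, Ttk, Bub1b and Plk1.

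The fragments recovered from the steps of the FPKM values summed over genes to 19906748 and 20671401 in the control libraries, against 18434247 and 20862232 for differentiation. Of the 23138 features whose mean reached 0.5 FPKM, 56.6% were called by limma at an adjusted p under 0.05 (29.6% higher and 27.0% lower in differentiation), and the groups did not overlap in 79.9%. The balance of directions depended on the scaling: 6848 features were called higher and 6246 lower here, 5792 and 7601 after quantile normalization, and 6064 and 7266 after median centring. The median log2 fold change over these features was 0.01, with the middle 50% between -0.38 and 0.44. In bulk RNA, fewer cells of a type and less RNA per cell cannot be told apart. Of the 10 kinase genes, all passed the filter on low values, 4 rose, 2 fell and 4 were not called. That is 6 of 10 called beside 56.6% of all features, so the share of called members was near the background. The groups did not overlap for any of the 10 genes. The median log2 fold change of the 10 was 0.25.

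**Figure D2:**
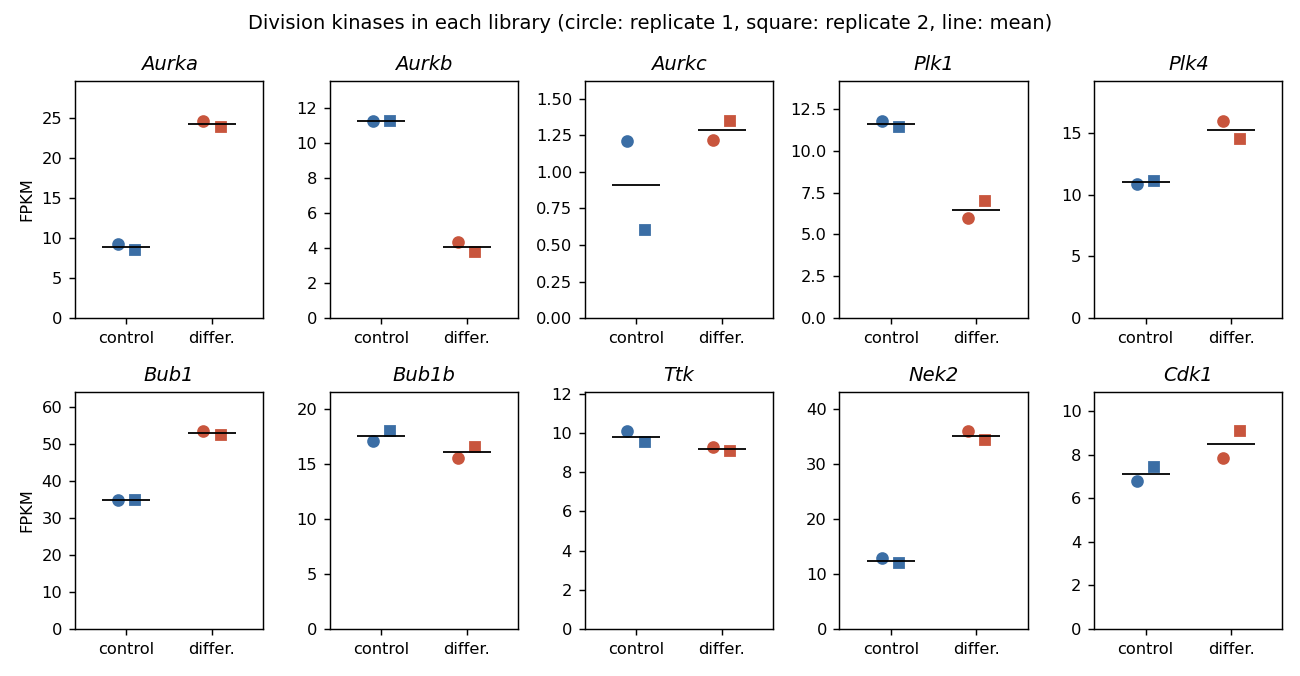
FPKM of each kinase gene in each library on axes that start at 0, with the group means as lines. Aurka, Nek2, Bub1 and Plk4 sit higher in both differentiation libraries, Aurkb and Plk1 lower, and the control libraries of Aurkc, at 1.21 and 0.604 FPKM, differ more from each other than the groups do.

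The Aurora kinases moved apart. Aurka (ENSMUSG00000027496, chr2:172356190-172370535, minus strand), which encodes the spindle pole kinase Aurora A, was at 9.30 and 8.57 FPKM in control and at 24.7 and 23.9 FPKM in differentiation. Both differentiation libraries lay far above both controls. The means were 8.93 ± 0.514 and 24.3 ± 0.592 FPKM (SD, n = 2 libraries in each group), a 2.72-fold rise. The log2 fold change on the log2(FPKM + 1) scale was 1.35 (SE 0.05; limma adjusted p = 2.36e-04), larger than that of 93.9% of the features tested. Behind these values stood 458 and 448 control fragments, against 1112 and 1231 for the differentiation libraries.

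Aurkb (ENSMUSG00000020897, chr11:69045647-69051664, plus strand), which encodes the kinase of the chromosomal passenger complex, went the other way. It was at 11.3 FPKM in each control library and at 4.37 and 3.77 FPKM in the differentiation libraries, and the groups did not overlap. The mean fell from 11.3 ± 0.0296 to 4.07 ± 0.429 FPKM (SD, n = 2 libraries in each group), which makes control 2.77-fold higher. The log2 fold change was -1.28 (SE 0.08; limma adjusted p = 6.27e-04), and only 1.95% of the features tested had a lower one. Its control fragments numbered 646 and 688, against 229 and 226 for differentiation.

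Aurkc (ENSMUSG00000070837, chr7:6995300-7003091, plus strand), the germ cell Aurora kinase, was the lowest member in every library. It was at 1.21 and 0.604 FPKM in control and 1.22 and 1.35 FPKM in differentiation, so that control replicate 1 lay just under the lower differentiation library. The counts were low, with 36 and 19 control fragments and 33 and 42 differentiation fragments. The 95% Poisson interval of control replicate 1 (0.851 to 1.68 FPKM) overlapped those of both differentiation libraries. That of control replicate 2 (0.364 to 0.943 FPKM) overlapped the interval of differentiation replicate 1 (0.839 to 1.71) but not that of differentiation replicate 2 (0.976 to 1.83). These intervals cover counting error only. The log2 fold change of 0.28 was not called (95% interval -0.24 to 0.79; limma adjusted p = 0.271), and its control libraries differed from each other more than the group means did. Without control replicate 1 it was 0.51 and without control replicate 2 it was 0.05, with limma adjusted p of 0.064 and 0.807.

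The balance within the family changed accordingly. Aurka made up 42.7% and 41.8% of the summed Aurora FPKM in control, and 81.5% and 82.3% in differentiation. Aurkb went from 51.7% and 55.2% to 14.4% and 13.0%. Aurkc stayed between 2.95% and 5.58% in all 4 libraries. The summed level was 21.8 and 20.5 FPKM in control and 30.3 and 29 FPKM in differentiation, so the sum also rose. The ratio of Aurka to Aurkb was 0.825 and 0.758 in control and 5.65 and 6.34 in differentiation, a difference of 2.92 in the mean log2 ratio (SD 0.09 and 0.12, n = 2 per group). The ratio of Aurkc to Aurkb was 0.108 and 0.0534 in control and 0.279 and 0.359 in differentiation, a difference of 2.06 in log2. With 2 libraries against 2, the two-sided exact permutation test gave p = 0.333 for each ratio, the smallest it can give. FPKM here is per merged exonic length, which for Aurkb is 2946 bases and includes retained-intron models, while its longest coding transcript has 1950 bases. Per longest coding transcript the Aurka to Aurkb ratio was 0.726 and 0.667 in control and 4.97 and 5.58 in differentiation.

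**Figure D3:**
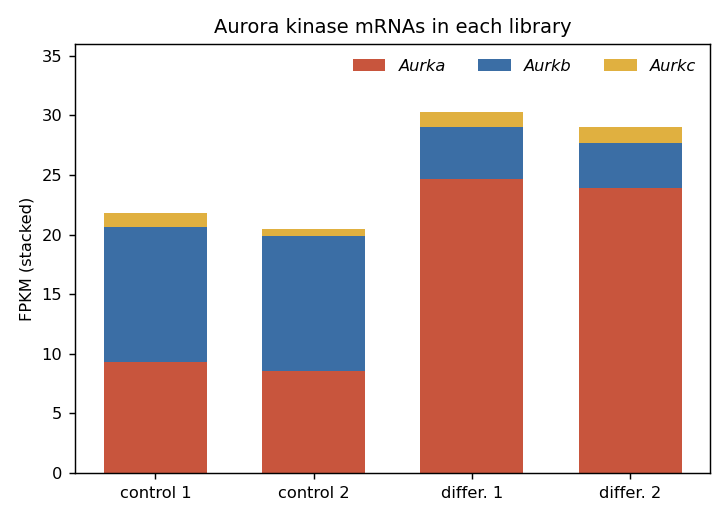
Stacked FPKM of the 3 Aurora kinase genes in each library, on an axis from 0. The Aurka segment grows from about 9 to about 24 FPKM between control and differentiation, the Aurkb segment shrinks, and Aurkc is a thin segment in every library.

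The Polo kinases also went in opposite directions. Plk1 (ENSMUSG00000030867, chr7:122159439-122169873, plus strand), the Polo kinase of mitotic entry and spindle assembly, was at 11.8 and 11.4 FPKM in control and 5.96 and 6.97 FPKM in differentiation. Both differentiation libraries were well below both controls. The mean fell from 11.6 ± 0.229 to 6.46 ± 0.711 FPKM (SD, n = 2 libraries in each group), with control 1.79-fold higher. On the log2 scale the change was -0.76 (SE 0.08; limma adjusted p = 0.00273). Plk4 (ENSMUSG00000025758, chr3:40800019-40816883, plus strand), the kinase of centriole duplication, was at 10.9 and 11.1 FPKM in control and 16.0 and 14.5 FPKM in differentiation. It was higher in both differentiation libraries, by 1.39-fold in the mean, and its log2 fold change was 0.44 (SE 0.06; limma adjusted p = 0.00524). That change was larger than in 75% of the features tested, against 9.72% for Plk1. The annotation places a to-be-experimentally-tested feature, Gm44985, on the strand opposite to Plk1, and 156 exonic bases (7.1% of the Plk1 exons) are shared. Gm44985 had 96 and 78 control fragments and 43 and 54 differentiation fragments, beside 503 and 519, and 233 and 312, for Plk1. The sources used here do not say whether counting used strand, so reads in the shared bases cannot be told apart.

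Among the checkpoint kinases Bub1 rose, while Bub1b and Ttk did not pass the test. Bub1 (ENSMUSG00000027379, chr2:127801122-127831865, minus strand), which marks centromeric chromatin and recruits checkpoint proteins, was the most abundant member in every library. It was at 34.9 FPKM in each control library and at 53.5 and 52.5 FPKM in the differentiation libraries. The groups were far apart for their spread, with means of 34.9 ± 0.0203 and 53.0 ± 0.666 FPKM (SD, n = 2 libraries in each group), a 1.52-fold rise. Its log2 fold change was 0.59 (SE 0.03; limma adjusted p = 3.25e-04), on 2957 to 4659 fragments a library.

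Bub1b (ENSMUSG00000040084, chr2:118598211-118641591, plus strand), whose product BUBR1 inhibits the anaphase-promoting complex, was at 17.1 and 18.0 FPKM in control and 15.6 and 16.6 FPKM in differentiation. The gap between the groups was smaller than the distance between the libraries of either group. Its log2 fold change was -0.12 (95% interval -0.26 to 0.01; limma adjusted p = 0.103). Ttk (ENSMUSG00000038379, chr9:83834689-83872389, plus strand), the kinase that starts checkpoint signalling, was at 10.1 and 9.56 FPKM in control and 9.32 and 9.08 FPKM in differentiation. Its differentiation libraries were the lower ones by a small margin, with a log2 fold change of -0.08 (95% interval -0.22 to 0.05; limma adjusted p = 0.206). Bub1b and Ttk were called lower after quantile normalization (limma adjusted p = 0.0166 and 0.0243), and Bub1b also after median centring and by limma-voom on the recovered fragments (limma adjusted p = 0.0275 and 0.0415). The ratio of Bub1b to Bub1 was 0.490 and 0.517 in control and 0.291 and 0.315 in differentiation, a difference of -0.73 in log2 (two-sided exact permutation p = 0.333, the smallest possible).

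Nek2 (ENSMUSG00000026622, chr1:191821444-191833050, plus strand), the centrosome kinase, had the largest rise of the 10. It was at 12.8 and 12 FPKM in control and 35.9 and 34.3 FPKM in differentiation. Both differentiation libraries were well above both controls, and the mean rose 2.83-fold, from 12.4 ± 0.520 to 35.1 ± 1.12 FPKM (SD, n = 2 libraries in each group). On the log2 scale the rise was 1.43 (SE 0.05; limma adjusted p = 1.81e-04), above that of 94.5% of the features tested. An antisense gene, Gm38037, shares 298 exonic bases with Nek2 (6.6% of the Nek2 exons). Gm38037 rose as well, from 85 and 108 fragments to 272 and 270, while Nek2 went from 1122 in each control library to 2880 and 3154.

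Cdk1 (ENSMUSG00000019942, chr10:69335146-69352938, minus strand), the kinase on which mitotic entry depends, was at 6.80 and 7.46 FPKM in control and 7.88 and 9.09 FPKM in differentiation. Its libraries did not overlap, but replicates within a group differed more than the groups were apart at their nearest. The log2 fold change was 0.22 (95% interval -0.02 to 0.46; limma adjusted p = 0.0987). In the authors' deposited table Cdk1 was called higher, with a log2 fold change of 0.25 and an adjusted p of 0.0255, and limma-voom on the recovered fragments also called it (limma adjusted p = 0.00522), as it called 62.6% of the features it tested. The authors' deposited table called the same 6 of the other members in the same directions, with log2 fold changes of 1.5 for Nek2, 1.44 for Aurka, 0.60 for Bub1, 0.47 for Plk4, -0.84 for Plk1 and -1.48 for Aurkb. Of all features, 42.3% were called there. Both tests used the same 4 libraries.

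**Figure D4:**
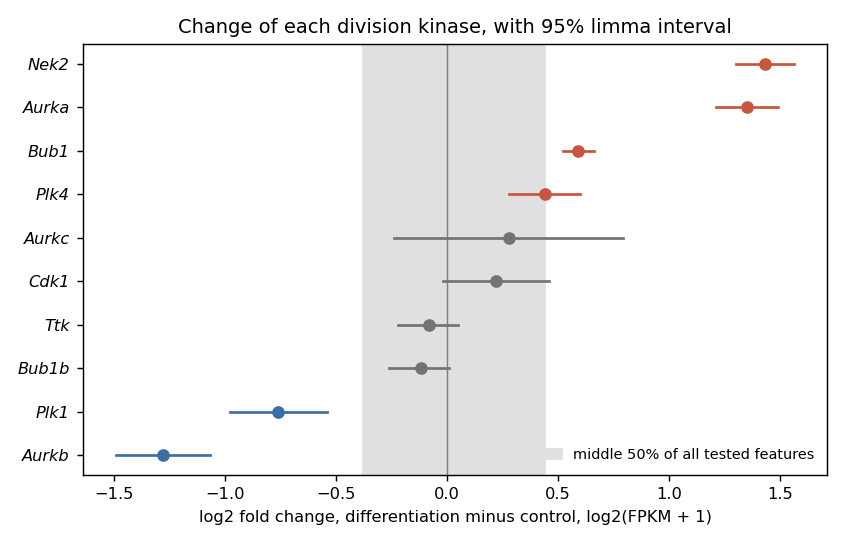
Log2 fold change of each kinase gene (points) with its 95% limma interval (lines), on the log2(FPKM + 1) scale, over the middle 50% of all tested features (grey band). Nek2 and Aurka lie above 1.2 and Aurkb below -1, while the intervals of Aurkc, Cdk1, Ttk and Bub1b include 0.

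Ordered by level, Bub1 and Bub1b led in control, at 34.9 and 17.6 FPKM. Nek2, Plk1, Aurkb and Plk4 followed between 12.4 and 11.0 FPKM, ahead of Ttk at 9.82, Aurka at 8.93, Cdk1 at 7.13 and Aurkc at 0.909 FPKM. In differentiation the order was Bub1, Nek2, Aurka, Bub1b and Plk4, at 53.0, 35.1, 24.3, 16.1 and 15.2 FPKM, then Ttk, Cdk1, Plk1, Aurkb and Aurkc. The libraries of Bub1b and Plk4 overlapped there, as did those of Ttk and Cdk1. Aurka therefore moved from rank 8 to rank 3 and Aurkb from rank 5 to rank 9. Levels between genes depend on the length used. Plk4 has 6855 merged exonic bases but a longest coding transcript of 3479, and per coding transcript it ranked 2 in control, at 21.6, behind Bub1 at 44.4. On that scale Nek2, Aurkb and Ttk were neighbours in control whose libraries overlapped, at 17.4, 17.1 and 16.8.

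The genes closest to a member in level and change were found by the distance of log2(FPKM + 1) over the 4 libraries, among 14396 other protein-coding features. For Aurka these were Cyp26a1, a retinoic acid hydroxylase, and Rhbdd3, at distances of 0.081 and 0.088. For Aurkb they were Prep and Irf1, a transcription factor of interferon responses, and for Nek2 they were Sav1 and Supt20. Plk1 lay nearest to Adcy7 and Emd, and Plk4 to Rcn2 and Rubcn. The nearest to Bub1 were Clptm1l and Uqcrc2, to Bub1b Per1 and Dhx8, to Ttk Fzd3 and Zcchc8, and to Aurkc Fgf20 and Myoz2. Cdk1 had a gene of the centriole list as its nearest, Cenpj, at a distance of 0.101, followed by Tmem39b. No member was among the 2 nearest of another member. With 4 libraries in 2 groups, these distances describe level and change only.

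Around the kinases, 9 lists of the genes they work with held 156 genes, of which 154 were tested, 50 rose and 61 fell. That is 32.5% higher and 39.6% lower, beside 29.6% and 27.0% of all features, and the median log2 fold change was -0.02 beside 0.01. After quantile normalization 40 were called higher and 72 lower. The lists are described by these counts, with no test against other genes. The Aurora cofactors rose in 5 of 9 and fell in 2 (median 0.25), and 4 were called higher after quantile normalization. Haspin, the kinase whose histone mark brings the passenger complex to centromeres, rose from 3.90 ± 0.188 to 16.2 ± 0.211 FPKM (SD, n = 2 libraries in each group; limma adjusted p = 1.52e-04). Sgo2a, the shugoshin that protects meiotic centromere cohesion, and Cdca8, the passenger subunit borealin, had log2 fold changes of 0.55 and 0.56. Incenp, the scaffold that activates Aurora B, fell by 0.44 on the log2 scale, and Sgo1, the mitotic shugoshin, by 0.54. The passenger subunits thus did not follow Aurkb together: Incenp fell with it, while Cdca8 and Birc5 (survivin, log2 fold change 0.25) rose. Tpx2, the activator of Aurora A, also had a log2 fold change of 0.25, and Bora and Tacc3 had 0.06 and 0.01 and were not called. The calls of Incenp and Sgo1 were lost without control replicate 2 (limma adjusted p = 0.0509 and 0.0627), and these were the lower calls of that list. Without differentiation replicate 1 or 2 there was 1 lower gene, and Sgo1 was again not called (limma adjusted p = 0.0509 and 0.0781).

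The partners of CDK1 split, with 7 of 18 higher and 9 lower (median -0.08). The mitotic cyclins Ccnb1 and Ccna2 fell from 21.6 ± 0.240 to 10.6 ± 0.335 FPKM and from 17.5 ± 0.352 to 8.81 ± 0.0744 FPKM (SD, n = 2 libraries in each group; limma adjusted p = 2.68e-04 and 2.82e-04). Ccnb3, a B-type cyclin known from meiosis, rose from 8.03 ± 0.0818 to 23.5 ± 1.26 FPKM, and Cks2, a small CDK subunit needed for meiosis, from 25.6 ± 0.207 to 75.5 ± 0.350 FPKM (SD, n = 2 libraries in each group). Pkmyt1, an inhibitory kinase of CDK1, rose by 1.93 on the log2 scale, and Cdc25c, an activating phosphatase, fell by 0.93. Ccnb2 had a log2 fold change of 0.65 and the germ cell cyclin Ccna1 of 0.89, both called (limma adjusted p = 0.00486 and 0.00618). Ccna1 was low, at a mean of 0.391 FPKM in control (10 and 19 fragments) and 1.56 FPKM in differentiation (54 and 55 fragments). Its control mean was under 0.5 FPKM, so it passed the filter only through differentiation, and its call is no independent support. The B-type cyclins thus went both ways, with Ccnb2 and Ccnb3 higher and Ccnb1 lower. Ccnb2 and Ccna1 were named after their values were seen, as were Birc5, Tpx2, Bora and Tacc3. The log2 fold change of Cdk1 itself, 0.22, was smaller in size than that of each cyclin named here.

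Genes of the checkpoint and the kinetochore platform rose in 6 of 20 and fell in 7 (median -0.05). Quantile normalization and median centring each gave 5 higher and 10 lower, and limma-voom gave 6 and 10. Nuf2, a subunit of the NDC80 complex, rose from 3.28 ± 0.00396 to 10.1 ± 0.542 FPKM, and Knl1, the scaffold on which BUB1 and BUBR1 assemble, from 11.3 ± 0.396 to 22.8 ± 0.128 FPKM (SD, n = 2 libraries in each group). Zwilch, a subunit of the RZZ complex, had a log2 fold change of 0.71. Spc25, another NDC80 subunit, fell by 0.62, Trip13, the ATPase that takes checkpoint complexes apart and acts in meiotic prophase, by 0.54, and Pmf1, a subunit of the MIS12 complex, by 0.41. Without control replicate 1, differentiation replicate 1 or differentiation replicate 2, the genes called lower in this list numbered 3, 4 and 2. The call of Pmf1 was lost without differentiation replicate 2 (limma adjusted p = 0.0512).

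Among the genes around the Polo kinases, 6 of 9 rose and 1 fell (median 0.28). Cep63 and Sass6, which act in centriole duplication with PLK4, rose from 1.94 ± 0.202 to 8.99 ± 0.0174 FPKM and from 3.54 ± 0.180 to 7.33 ± 0.326 FPKM (SD, n = 2 libraries in each group). Stil, the PLK4 substrate that starts the new centriole, had a log2 fold change of 0.52. These 3 genes rose, as Plk4 did. The gene that fell was Plk3, a stress-responsive Polo kinase, by 0.79. In the NEK family, 8 of 10 genes passed the filter on low values, and of these 4 rose and 3 fell (median 0.13). Nek4, Nek11 and Nek9 had log2 fold changes of 1.52, 1.21 and 0.62. Nek3, Nek7 and Nek6 had -1.07, -0.50 and -0.19, and without control replicate 1 Nek3 was the sole gene of that list still called lower. Nek6 lost its call without any 1 of the 4 libraries (limma adjusted p from 0.0812 to 0.103), and Nek7 without control replicate 1 (limma adjusted p = 0.0535).

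The anaphase-promoting complex and separase list had 5 of 18 genes higher and 5 lower (median -0.02). Those called lower numbered 8 after quantile normalization and 3 with a constant prior variance. The largest rise was in Ube2s, a ubiquitin-conjugating enzyme of that complex, from 22.8 ± 0.770 to 54.7 ± 2.23 FPKM (SD, n = 2 libraries in each group). Cdc20, the activator that the checkpoint holds back, and Pttg1, the separase inhibitor securin, had log2 fold changes of 0.74 and 0.84. Fbxo5, an inhibitor of the complex, fell by 0.76, while the subunits Anapc2 and Cdc23 fell by 0.29 and 0.25. When a library was left out, 2 or 3 genes were still called lower, 3 without either control library and 2 without either differentiation library. Cdc23 was not called without control replicate 2, differentiation replicate 1 or differentiation replicate 2 (limma adjusted p = 0.0638, 0.0597 and 0.0512).

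Regulators known to bind the promoters of division genes also went both ways, with 6 of 19 higher and 7 lower (median -0.02). Mybl1 (A-MYB), the MYB factor of spermatocytes, rose from 4.74 ± 0.323 to 29 ± 0.602 FPKM (SD, n = 2 libraries in each group; limma adjusted p = 1.15e-04). Rbl1 and Lin52, both parts of DREAM, had log2 fold changes of 1.34 and 1.80. Foxm1, the activator of mitotic genes, fell from 12 ± 0.766 to 7.72 ± 0.0248 FPKM, and the S-phase activators E2f1 and E2f3 fell by 0.76 and 0.57 on the log2 scale. Genes called lower in this list numbered 4 without control replicate 2 or without differentiation replicate 2.

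Other genes of G2 and mitosis rose in 10 of 29 and fell in 8 (median 0.06), and this balance turned with the scaling, to 6 higher and 11 lower after quantile normalization and 7 and 9 after median centring. Smc4, a condensin subunit, rose from 25.1 ± 0.383 to 74.8 ± 2.09 FPKM, Prc1, which bundles the microtubules of the central spindle, by 0.88 on the log2 scale, and Cdca3, a trigger of mitotic entry, by 1.27. Cenpa, the centromeric histone, fell from 8.54 ± 0.550 to 3.74 ± 0.343 FPKM (SD, n = 2 libraries in each group), and Gtse1 and the chromokinesin Kif4 fell by 0.35 and 0.45. The genes called lower numbered 3 without differentiation replicate 1 and 4 without any other library. Of the S-phase genes, 19 of 24 fell and 1 rose (median -0.47). Mcm2, Cdt1 and Mcm4, which load the replicative helicase or belong to it, fell by 1.36, 1.28 and 1.12 on the log2 scale. Gins1, a replication fork factor, rose by 0.51, a call lost without either control library (limma adjusted p = 0.0762 and 0.0642).

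**Figure D5:**
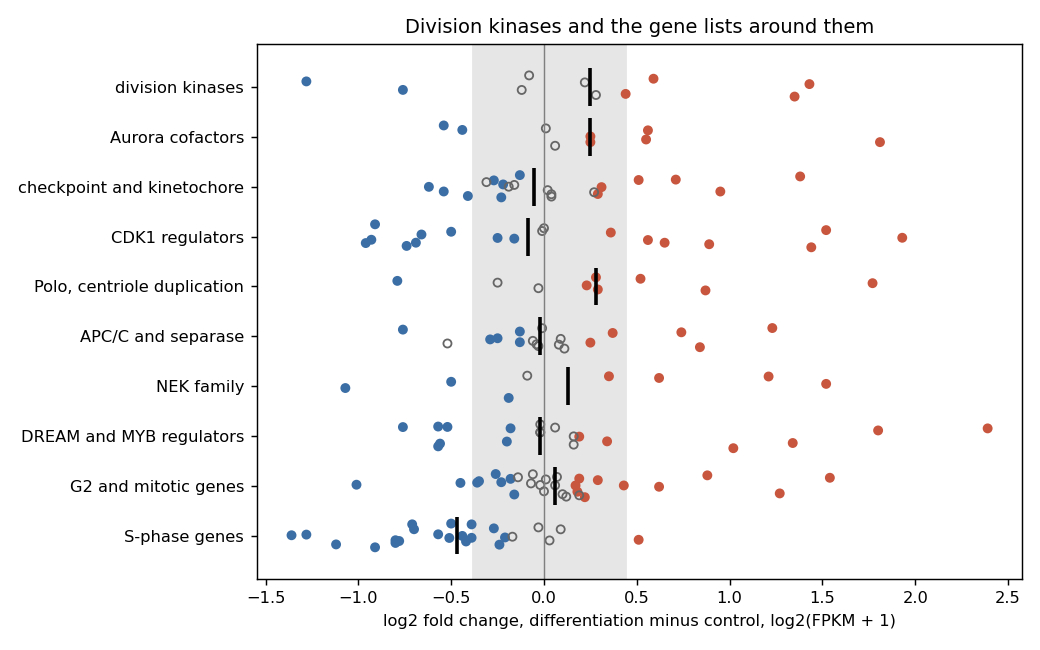
Log2 fold change of each tested gene in the kinase group and in the 9 surrounding lists, on the log2(FPKM + 1) scale, with filled points for called genes, open points for the rest and black bars for medians. Both directions appear in every list, and the S-phase list sits to the left with a median of -0.47, outside the grey band of the middle 50% of all features.

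Markers of germ cell stages and of other testis cells moved in the same libraries as the kinases. Meiotic prophase genes rose in 21 of 23 and fell in 1, with a summed level of 410.8 and 410.7 FPKM in control and 1167.7 and 1188.6 FPKM in differentiation. Genes of undifferentiated spermatogonia fell in 13 of 17 tested and rose in 1, summing to 193.9 and 196.7 FPKM in control and 85.1 and 85.6 FPKM in differentiation. Those of differentiating spermatogonia fell in 7 of 10 and rose in 2 (1 without differentiation replicate 2). Their sum was 532.2 and 525.2 FPKM in control and 338.2 and 342.8 FPKM in differentiation. In control, Stra8 of that list was at a mean of 236.9 FPKM, Dmrt1 at 50.9 and Kit at 31.0 FPKM. Spermatid genes rose in 8 of 13 tested. Acr and Zpbp2 went from 0.350 and 0.640 FPKM in control to 9.42 and 10.5 FPKM in differentiation. Prm1 and Tnp2 were also called higher but reached only 0.951 and 1.53 FPKM there, from 0.268 and 0.322 FPKM in control. The control means of Acr, Prm1 and Tnp2 were under 0.5 FPKM, so they passed the filter only through differentiation. The count of 8 therefore partly reflects the filter. Some genes called lower in the fibroblast and macrophage lists likewise passed it only through control. Izumo1, Tssk2 and Acrv1 had negative log2 fold changes (-0.49, -0.30 and -0.08) and were not called. The fibroblast and peritubular list fell in 16 of 18, from 688.1 and 696.7 to 295.6 and 280.4 summed FPKM, while 10 of the 12 tested genes of macrophages and leukocytes fell, from 77.0 and 73.8 to 22.8 and 21.8 summed FPKM, and 1 rose, a call lost without either differentiation library. Endothelial markers fell in 2 of 5 tested, Leydig cell markers fell in 2 of 4 and rose in 1, and Sertoli cell markers rose in 4 of 13 and fell in 6, with summed levels between 183.2 and 194.2 FPKM in all 4 libraries. The deposited table held 127 of the 131 markers of these 9 lists. Tnp1 and Txndc8 of spermatids, Rhox5 of Sertoli cells and Insl3 of Leydig cells were absent. All 31600 features of the table were above 0 in at least 1 library, so it cannot show a marker without fragments. Markers of the labelled cell type were uneven in the control libraries. Zbtb16 and Sall4 were at 25.4 ± 0.0230 and 29.2 ± 0.312 FPKM (SD, n = 2), Gfra1 and Ret at 15.9 ± 0.653 and 14.9 ± 0.568 FPKM. Nanos2, Pax7, Eomes and T were low, at 0.734, 0.434, 0.891 and 1.49 FPKM. Id4, a marker of stem cells among spermatogonia, was the 1 gene of its list called higher, beside 13 called lower. It rose from 2.95 ± 0.0778 to 12.4 ± 0.215 FPKM (limma adjusted p = 1.66e-04). Of these, Zbtb16 and Sall4 are the 2 with the smallest p in their list, and the others were named after their values were seen. So were Stra8, Prm1, Tnp2, Izumo1, Tssk2 and Acrv1. The part of these other cells and stages in the changes of the kinases was not tested.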

How the data were processed

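Per the labels' protocols, TRIzol was used to extract total RNA, and ribosomal RNA was removed before sequencing. Per the submitters' processing notes, HISAT2 and the GRCm38 build were used. The sources used here give neither the annotation nor the counting tool nor the use of strand. The authors deposited FPKM per feature and library, with their own log2 fold change, p-value and adjusted p-value, whose test is not named.

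Fragments were recovered as FPKM times the union of a gene's exons in GENCODE M21 (31536 of 31600 identifiers matched), and a scale per library (17771900 to 20650100, not a library size) was fitted at which low values became whole. Within a tolerance of 0.05, this held for 96.2% of features below 300 fragments in each library. Groups were compared on log2(FPKM + 1) by limma-trend (limma 3.58.1, R 4.3.3), two-sided, and p-values were adjusted by Benjamini-Hochberg over the 23138 features whose mean reached 0.5 FPKM. It had 2 residual degrees of freedom, to which the prior added 2.14. limma was also run on simulated counts in which far fewer features changed than were called here, so that run is no support for these calls. A symbol with several features was represented by the one with the higher mean.

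The members and lists were chosen with earlier results of these data known. Named from each surrounding list were up to 3 called genes in each direction with the smallest p, from each marker list up to 2, and for each member its 2 nearest genes. Lists were described by counts and medians, with no set test. Promoter windows came from RefSeq (GRCm38.p6). Protein sequences were not analysed here. Alternatives varied the scaling, the pseudocount, the low-value filter and the prior variance, added a replicate block, used limma-voom, or left out each library. The transcript length behind the ratios was added after seeing the data. Other steps used pandas 2.3.3, scipy 1.17.1, numpy 2.4.6 and matplotlib 3.10.9 in Python 3.11.15.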

Additional observations from a re-analysis of the deposited data

How the results depend on the processing

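The 6 kinase genes called in the main test kept their direction and their call under all 12 alternatives, with log2 fold changes from 1.29 to 1.5 for Nek2, 1.22 to 1.44 for Aurka, 0.48 to 0.60 for Bub1, 0.32 to 0.51 for Plk4, -0.87 to -0.66 for Plk1 and -1.48 to -1.19 for Aurkb, and limma adjusted p of at most 0.0305. Calls gained were Bub1b with limma-voom (-0.13), quantile normalization (-0.26) and median centring (-0.20), Ttk after quantile normalization (-0.20), and Cdk1 with limma-voom (0.25). With the replicate block, Cdk1 was also called (0.22; limma adjusted p = 0.0478), while Nek6 of the NEK list lost its lower call (-0.19; limma adjusted p = 0.0553). Quantile normalization thus gave 4 kinases lower in place of 2. It also gave 6 G2 and mitotic genes higher in place of 10 and 8 genes of the anaphase-promoting complex list lower in place of 5 (3 with a constant prior variance), and the replicate block gave 5 G2 and mitotic genes lower in place of 8. With a filter at 2 FPKM, 2 S-phase genes rose in place of 1, 5 spermatid genes rose in place of 8, 6 macrophage genes fell in place of 10 and 1 endothelial gene fell in place of 2. Spermatid genes called lower numbered 2 after quantile normalization or median centring, and 1 with a constant prior variance or limma-voom, in place of 0. Of all calls, 52.3% were higher in the main test, 43.2% after quantile normalization and 45.5% after median centring. The shared replicate numbers were not shown to pair the libraries: the correlation of their deviations was -0.000408 over 23138 features. Quantile normalization and median centring shifted the median of all features to -0.09 and -0.06. The Aurkc difference is limited by its 19 to 42 fragments a library. The Aurka to Aurkb difference in log2 ratio ranged from 2.84 to 3.00 when a library was left out, and that of Aurkc to Aurkb from 1.55 to 2.57. The cause of these differences was not tested.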
